A study of Mus musculus with 6 samples.

Results

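The genes described here are 10 genes of the tumor necrosis factor (TNF) and NF-κB pathway, out of 20630 gene symbols named on the array. The list was made by symbol, with earlier results of these data known. They are the cytokine *Tnf*, its receptors *Tnfrsf1a* and *Tnfrsf1b*, the NF-κB subunits *Nfkb1*, *Nfkb2*, *Rela*, and *Relb*, the kinase *Ikbkb*, and the inhibitors *Nfkbia* and *Tnfaip3*. The array carried 13 probes for them, each assigned through its RefSeq accession, and all 13 passed the filter on detection (at least 3 of 6 arrays), 9 of them on all 6 arrays (81.3% of all probes tested). *Tnfrsf1a*, *Nfkb1*, and *Relb* had a pair of probes each, and the other 7 genes had 1 probe. RNA of interscapular brown adipose tissue (iBAT) from male C57BL/6 mice, 16 weeks old, was labeled with Cy3 and measured on 6 Agilent arrays of the whole mouse genome. They hold 3 control samples and 3 *ob/ob* samples, and the labels give the genotype of the controls only as control. *ob/ob* mice carry a mutated leptin gene in all cells and become obese and hyperglycemic, and the study used them to ask how brown fat changes in obesity. The labels do not say whether a sample came from 1 mouse or several, so the p values measure only the spread between these samples.

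TNF is a cytokine made largely by macrophages and other immune cells, and it is known for its rise in the white adipose tissue of obese animals, where it interferes with insulin signaling. It binds TNF receptor 1, which most cells carry, and TNF receptor 2, which is found mainly on immune and endothelial cells. Both receptors can activate the IκB kinase complex, whose IKKβ subunit marks the inhibitor IκBα for destruction and so frees the p65–p50 form of NF-κB to enter the nucleus. A slower branch of the pathway runs through RelB and p52. NF-κB then switches on the genes of its own inhibitors, among them *Nfkbia* and *Tnfaip3*, as well as *Nfkb2*, *Relb*, and *Tnf* itself.

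The promoters of 3 of these genes are shown because they hold a match to the NF-κB consensus decamer just before the transcription start. The RefSeq promoter table (build GRCm38.p6) held 7 of the 10 genes, and the 250 bases before each start were searched on both strands. The 7 genes had 10 windows, 1 for each start, of which 5 held a match, beside 7.25% of all 32851 windows of this length. The 5 were all 3 windows of *Nfkb2*, of which the last 2 overlap slightly, the 1 window of *Nfkbia*, and 1 of the 2 windows of *Tnfaip3*. In the sequences, written 5′ to 3′ on the strand of the gene, capitals mark the bases covered by a match, and overlapping matches in *Nfkb2* run together.
Nfkbia, chr12:55492648-55492897, minus strand: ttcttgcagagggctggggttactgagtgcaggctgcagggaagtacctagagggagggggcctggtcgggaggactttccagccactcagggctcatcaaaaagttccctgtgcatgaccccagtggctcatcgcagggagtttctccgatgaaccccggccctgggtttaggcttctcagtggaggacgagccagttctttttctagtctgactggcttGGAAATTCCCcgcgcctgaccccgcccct
Tnfaip3, chr10:19015411-19015660, minus strand: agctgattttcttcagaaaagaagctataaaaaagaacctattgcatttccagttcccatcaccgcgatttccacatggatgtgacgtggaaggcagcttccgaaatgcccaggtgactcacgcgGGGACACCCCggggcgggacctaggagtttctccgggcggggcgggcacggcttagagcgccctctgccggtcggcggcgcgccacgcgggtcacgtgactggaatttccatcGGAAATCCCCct
Nfkb2, chr19:46304487-46304736, plus strand: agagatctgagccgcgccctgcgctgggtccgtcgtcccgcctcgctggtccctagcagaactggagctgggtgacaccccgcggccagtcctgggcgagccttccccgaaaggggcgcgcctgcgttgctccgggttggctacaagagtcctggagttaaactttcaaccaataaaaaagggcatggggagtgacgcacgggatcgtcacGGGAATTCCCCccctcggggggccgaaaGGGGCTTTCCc
The match in *Nfkbia* lay 29 to 20 bases before the start, and the last match in *Tnfaip3* lay 12 to 3 bases before it. The windows of *Tnf*, *Tnfrsf1a*, *Tnfrsf1b*, and *Rela* held no match to this decamer, which says only that these letters are absent from the 250 bases searched. The arrays measured mRNA and not binding, so the matches are a description of sequence.

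None of the 13 probes separated *ob/ob* from control iBAT. At an adjusted p under 0.05 (limma, Benjamini-Hochberg over all 35448 probes tested), 0 of 13 probes differed, as did 0.0% of all probes tested, and the lowest adjusted p over all probes was 0.154. At an unadjusted p under 0.05, limma also called 0 of 13, against 3.51% of all probes, and the methods' t-test called none of the 10 genes. The *ob/ob* and control arrays overlapped for all 13 probes, whereas the groups did not overlap for 7.92% of all probes. With shares this low over all probes, counts of 0 are no result particular to these genes. By the brighter probe, the mean was higher in *ob/ob* iBAT for 5 of the 10 genes and lower for the other 5, with a median difference of 0.00043 log2 units. Over all 19011 genes tested, 42.8% had a higher mean in *ob/ob* iBAT and the median was −0.086.

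The values differed widely between single arrays. On the quantile-normalized log2 scale, the range over the 6 arrays had a median of 2.02 over the 13 probes, from 0.56 for *Tnf* to 6.04 for *Tnfrsf1a*, and the median range over all probes tested was 1.67. The array labeled *ob/ob* 3 was the highest of the 6 for 8 of the 13 probes (27.6% of all probes tested) and the lowest for 2 (43.1% of all). Together these were 76.9% of the 13, beside 70.7% of all probes tested. Its spike-in RNA also stood apart before normalization, at a median of 4.01 (log2), and the 5 other arrays lay at 6.19 to 7.10. Over all probes, the array labeled control 3 correlated better with *ob/ob* 1 and *ob/ob* 2 than with the other controls. The array labeled *ob/ob* 3 correlated better with control 1 and control 2 than with the other *ob/ob* arrays. The Spearman correlation of control 3 was 0.642 with control 1, 0.730 with control 2, 0.915 with *ob/ob* 1, and 0.944 with *ob/ob* 2. That of *ob/ob* 3 was 0.573 with *ob/ob* 1, 0.488 with *ob/ob* 2, 0.858 with control 1, and 0.770 with control 2. Control 3 and *ob/ob* 3 had the lowest correlation of all pairs of arrays, 0.417. Every group difference given here takes the labels as they stand, and whether these labels were exchanged was not tested. Of the 10 genes, 0 had an unadjusted limma p under 0.05 without control 3, and 1 did without *ob/ob* 3. Over all 35448 probes tested, that threshold called 1804 higher and 1201 lower without control 3. Without *ob/ob* 3 it called 2188 higher and 1296 lower, so these member counts are no result particular to the 10 genes.

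**Figure D1:**
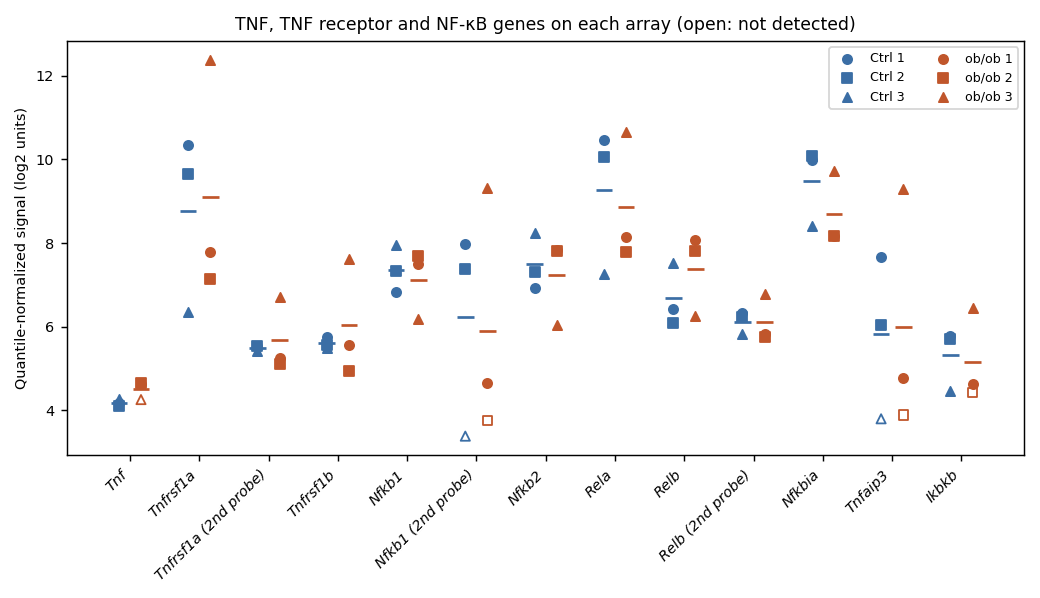
Quantile-normalized signal (log2 units) of the 13 probes on each of the 6 arrays, controls in blue and *ob/ob* in orange, with a bar at each group's mean and an open symbol where the probe was not detected. *Tnfrsf1a* ranged over 6.04 log2 units and *Tnf* over 0.56, and the groups overlap for every probe.

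*Tnf*, the ligand, gave a dim signal on all 6 arrays. Its probe was printed in 10 spots per array, so that the spread between spots can be seen. The probe lay at 4.19, 4.11, and 4.27 log2 units on control arrays 1 to 3 versus 4.64, 4.66, and 4.26 on *ob/ob* arrays 1 to 3. *ob/ob* 1 and *ob/ob* 2 lay above all controls, while *ob/ob* 3 lay among them and was the only array on which the probe was not detected. The mean was 4.19 ± 0.083 (SD, n = 3) in control and 4.52 ± 0.23 (SD, n = 3) in *ob/ob* iBAT. The difference was 0.33 log2 units (standard error 0.31, 95% interval −0.41 to 1.07, unadjusted limma p 0.317). The methods' t-test on the same values gave a standard error of 0.14 and a lower unadjusted p of 0.0754. Normexp background correction gave a difference of 0.087 (standard error 0.11).

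Before normalization, the *Tnf* spots averaged 4.95, 4.92, and 3.88 (log2) on control arrays 1 to 3 versus 4.68, 5.11, and 2.54 on *ob/ob* arrays 1 to 3. The SD between the spots of an array lay between 0.09 and 0.45. All 10 spots were well above background on control 1, *ob/ob* 1, and *ob/ob* 2, but only 6 on control 2, 6 on control 3, and 2 on *ob/ob* 3. The median background-corrected signal on *ob/ob* 3 was 5.95, compared with 34.1 on *ob/ob* 2 and 31.1 on control 1. Quantile normalization drew these values together to a range of 0.56 log2 units. With each array scaled to its 75th percentile instead, the difference of *Tnf* was −0.11, under which the median of all probes also moved, from −0.073 to −0.32. Relative to the median of all probes, *Tnf* was 0.41 higher in *ob/ob* iBAT after quantile normalization and 0.21 higher after scaling. The limma standard error of the *Tnf* difference was 0.31 after quantile normalization and 0.74 after scaling.

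**Figure D2:**
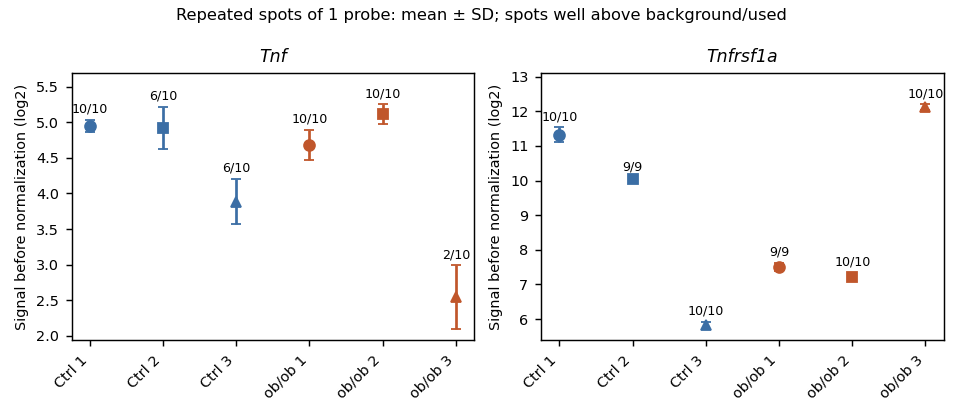
Signal before normalization between arrays (log2) of the *Tnf* probe and the brighter *Tnfrsf1a* probe, as mean ± SD over the spots of an array, with the number of spots well above background over the number used. *Tnf* lay at 2.54 on *ob/ob* 3 with 2 of 10 spots above background, while *Tnfrsf1a* on the same array was the highest at 12.12.

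*Tnfrsf1a* encodes TNF receptor 1, the main receptor for soluble TNF. Its brighter probe lay at 10.34, 9.64, and 6.35 log2 units on control arrays 1 to 3 versus 7.79, 7.13, and 12.39 on *ob/ob* arrays 1 to 3. The highest and the lowest of these values belong to *ob/ob* 3 and control 3, so each group spans most of the whole range. That range was wider than the range of 99.1% of all probes tested. This probe was also printed in 10 spots per array. Before normalization, the spots averaged 11.32, 10.04, and 5.82 (log2) on control arrays 1 to 3 versus 7.50, 7.21, and 12.12 on *ob/ob* arrays 1 to 3, with an SD between spots of 0.05 to 0.21. That SD covers the reading of the spots and not the labeling, the hybridization, or the quality of the RNA. The group difference was 0.33 log2 units, with a standard error of 1.66 and a 95% interval from −3.70 to 4.35.

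The dimmer probe of *Tnfrsf1a* lay at 5.55, 5.54, and 5.42 log2 units on control arrays 1 to 3 versus 5.25, 5.11, and 6.71 on *ob/ob* arrays 1 to 3. It ordered 13 of the 15 pairs of arrays the same way as the brighter probe, over a narrower range of 1.59 log2 units. Its difference was 0.19 (standard error 0.50). Without *ob/ob* 3, the brighter probe gave −1.32, and without control 3 it gave −0.89, while without *ob/ob* 2 it gave 1.31.

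*Tnfrsf1b* encodes TNF receptor 2. It lay at 5.75, 5.56, and 5.49 log2 units on control arrays 1 to 3 versus 5.56, 4.95, and 7.61 on *ob/ob* arrays 1 to 3. The controls lay close together, with an SD of 0.13 against 1.40 in the *ob/ob* samples, and *ob/ob* 3 lay far above the other 5 arrays. The difference was 0.44 (standard error 0.70, 95% interval −1.26 to 2.14, unadjusted limma p 0.554), and it was −0.35 without *ob/ob* 3 and 0.99 without *ob/ob* 2.

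*Ikbkb* encodes IKKβ, the kinase that acts on IκBα. It lay at 5.79, 5.70, and 4.47 log2 units on control arrays 1 to 3 versus 4.63, 4.43, and 6.45 on *ob/ob* arrays 1 to 3, and was not detected on *ob/ob* 2. Control 3 lay with *ob/ob* 1 and *ob/ob* 2 at the low end. The difference was −0.15 (standard error 0.68), and its sign turned when control 1, control 2, *ob/ob* 1, or *ob/ob* 2 was left out, with values from 0.039 to 0.22. It was −0.58 without control 3 and −0.79 without *ob/ob* 3.

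Among the NF-κB subunits, *Rela* and *Nfkb1* make the p65 and p50 proteins of the classical form. *Rela* lay at 10.47, 10.06, and 7.26 log2 units on control arrays 1 to 3 versus 8.15, 7.79, and 10.67 on *ob/ob* arrays 1 to 3. As for *Tnfrsf1a*, control 3 was the lowest array and *ob/ob* 3 the highest. The means were 9.26 ± 1.75 (SD, n = 3) in control and 8.87 ± 1.57 (SD, n = 3) in *ob/ob* iBAT, a difference of −0.40 (standard error 1.11, 95% interval −3.09 to 2.30). The difference was −1.40 without control 3 and −1.29 without *ob/ob* 3, and it was 0.21 without control 1, 0.14 without *ob/ob* 2, and 0.0038 without control 2.

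The probes of *Nfkb1*, which carry the same RefSeq accession, ran against each other. The brighter probe lay at 6.82, 7.33, and 7.95 log2 units on control arrays 1 to 3 versus 7.50, 7.68, and 6.20 on *ob/ob* arrays 1 to 3, so that it was highest on control 3 and lowest on *ob/ob* 3. The dimmer probe lay at 7.97, 7.38, and 3.39 log2 units on control arrays 1 to 3 versus 4.65, 3.75, and 9.31 on *ob/ob* arrays 1 to 3, lowest on control 3 and highest on *ob/ob* 3. Of the 15 pairs of arrays, 0 were ordered the same way by both probes. The dimmer probe was not detected on control 3 and *ob/ob* 2. The differences between the groups were −0.24 (standard error 0.54) and −0.34 (standard error 1.81), so opposite patterns gave means that differed in the same direction, in neither case by more than the standard error. Without *ob/ob* 3, the brighter probe gave 0.23, and without control 3 it gave 0.052.

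*Relb*, the subunit of the slower branch, showed a similar disagreement. Its brighter probe lay at 6.42, 6.09, and 7.53 log2 units on control arrays 1 to 3 versus 8.08, 7.82, and 6.26 on *ob/ob* arrays 1 to 3, with *ob/ob* 1 and *ob/ob* 2 above all controls and *ob/ob* 3 between control 2 and control 1. The dimmer probe lay at 6.32, 6.23, and 5.82 log2 units on control arrays 1 to 3 versus 5.83, 5.75, and 6.78 on *ob/ob* arrays 1 to 3. The probes ordered 4 of 15 pairs of arrays the same way. By the brighter probe the difference was 0.71 (standard error 0.64, 95% interval −0.83 to 2.25, unadjusted limma p 0.306), and by the dimmer it was −0.0033 (standard error 0.41). Without *ob/ob* 3, the brighter probe gave 1.27 with an unadjusted limma p of 0.0491 and an adjusted p of 0.50. This was the only case, over the 16 alternatives tried, in which 1 of the 10 genes had an unadjusted p under 0.05.

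Such disagreement was not confined to these genes. Of the 3971 genes with exactly 2 tested probes, 23.5% had probes that ordered 5 or fewer of the 15 pairs of arrays the same way, and the median was 10. The share of genes with 0 pairs in the same order, as for *Nfkb1*, was not computed. Probe sequences were not used here, so where each probe lies in its transcript was not tested.

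**Figure D3:**
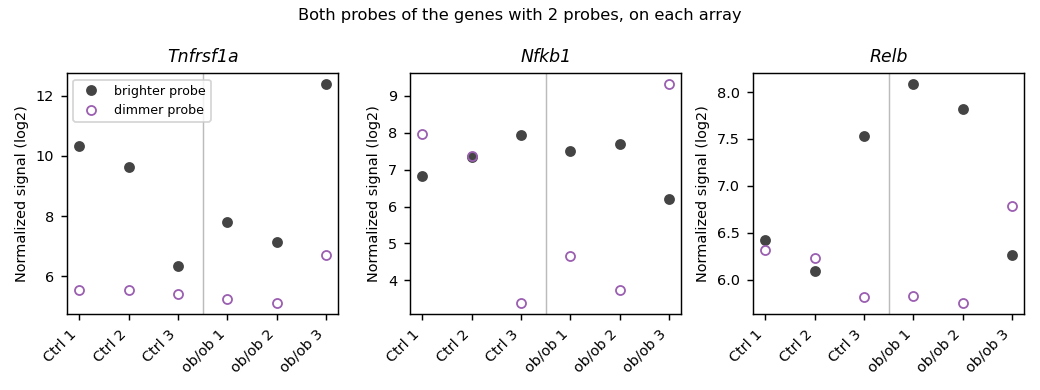
Normalized signal (log2) of both probes of *Tnfrsf1a*, *Nfkb1*, and *Relb* on each array, with a line between controls and *ob/ob* samples and a separate vertical scale for each gene. The *Nfkb1* probes mirror each other, with 0 of 15 pairs of arrays in the same order, whereas the *Tnfrsf1a* probes share the order of 13.

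*Nfkb2* encodes p100, which is cut to p52, the partner of RelB. It lay at 6.92, 7.31, and 8.25 log2 units on control arrays 1 to 3 versus 7.84, 7.82, and 6.03 on *ob/ob* arrays 1 to 3. Control 3 was the highest array and *ob/ob* 3 the lowest, as for the brighter probe of *Nfkb1* and opposite to *Rela*. The difference was −0.26 (standard error 0.64, 95% interval −1.81 to 1.28), and it was 0.33 without *ob/ob* 3 and 0.11 without control 3.

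The inhibitors are themselves induced by NF-κB. *Nfkbia*, which encodes IκBα, lay at 9.98, 10.08, and 8.41 log2 units on control arrays 1 to 3 versus 8.18, 8.17, and 9.72 on *ob/ob* arrays 1 to 3. *ob/ob* 1 and *ob/ob* 2 lay below all controls and *ob/ob* 3 lay between control 3 and control 1. The means were 9.49 ± 0.94 (SD, n = 3) in control and 8.69 ± 0.89 (SD, n = 3) in *ob/ob* iBAT. The difference of −0.80 (standard error 0.66, 95% interval −2.39 to 0.79) had the lowest unadjusted limma p of the 13 probes, 0.268, and an exact permutation p of 0.20, where 3 samples against 3 cannot go below 0.10. Without control 3 it was −1.34 and without *ob/ob* 3 it was −1.32, neither with an unadjusted limma p under 0.05.

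*Tnfaip3*, which encodes the ubiquitin-editing enzyme A20, lay at 7.66, 6.05, and 3.80 log2 units on control arrays 1 to 3 versus 4.77, 3.89, and 9.30 on *ob/ob* arrays 1 to 3. It was not detected on control 3 and *ob/ob* 2, and its range of 5.50 log2 units was wider than that of 98.3% of all probes tested. *Nfkbia* and *Tnfaip3* thus shared low values on control 3, *ob/ob* 1, and *ob/ob* 2, but only *Tnfaip3* was highest on *ob/ob* 3. The difference of *Tnfaip3* was 0.15 (standard error 1.63, 95% interval −3.78 to 4.08), and it was −1.50 without *ob/ob* 3, −0.87 without control 3, and up to 1.20 without any 1 of the other arrays.

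A p that misses the threshold does not show that the groups were alike. For 9 of the 13 probes, the 95% interval of the difference reached beyond 1 log2 unit, or 2-fold, in both directions. The narrowest standard error was that of *Tnf* (0.31) and the widest that of the dimmer *Nfkb1* probe (1.81).

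**Figure D4:**
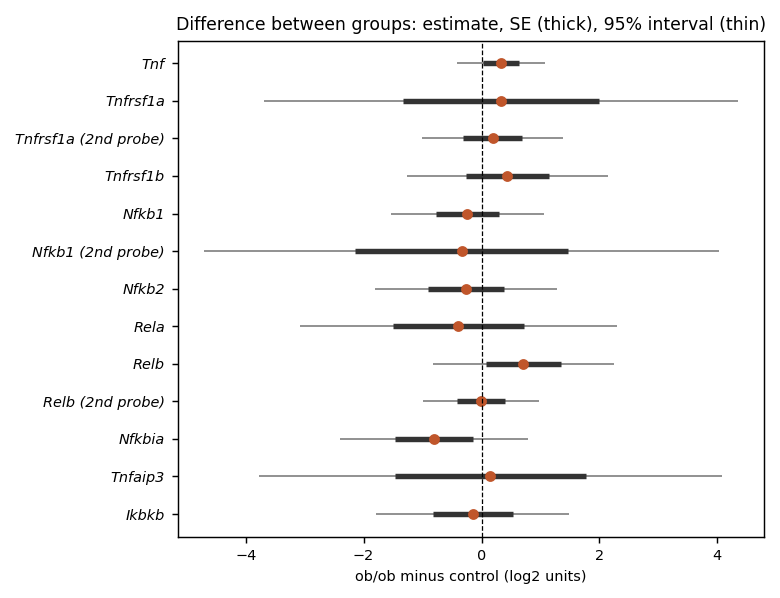
Difference between *ob/ob* and control iBAT (log2 units) for the 13 probes, with the limma estimate as a point, its standard error as a thick line and its 95% interval as a thin line. All 13 intervals cover 0, from the narrowest for *Tnf* (−0.41 to 1.07) to the widest for the dimmer *Nfkb1* probe (−4.70 to 4.03).

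The arrays were read in 4 scans, and control 1, control 3, and *ob/ob* 1 shared one. Within that scan, *ob/ob* 1 minus the mean of control 1 and control 3 ranged from −1.02 to 1.11 over the 13 probes. It kept the sign of the full comparison for *Tnf* (0.41), *Relb* (1.11), *Nfkbia* (−1.01), *Rela* (−0.72), and *Ikbkb* (−0.50). It had the other sign for *Tnfrsf1a* (−0.55), *Tnfrsf1b* (−0.062), *Nfkb1* (0.12), *Nfkb2* (0.26), and *Tnfaip3* (−0.96). These values come from 1 *ob/ob* array and 2 control arrays.

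Cell types whose share could differ between samples were read from short marker lists. *Ucp1*, the uncoupling protein that defines brown fat, was detected on all 6 arrays, and all 5 brown adipocyte markers had a lower mean in *ob/ob* iBAT (median difference −2.91). The 5 brown adipocyte markers had a median level of 7.59 to 10.1 log2 units on the control arrays and of 6.97 to 7.58 on the *ob/ob* arrays. These ranges nearly touch, at control 3 and *ob/ob* 3. The groups did not overlap for 2 of the 5 markers (8.0% of all genes tested). They did overlap for *Ucp1*, at 9.48 on control 3 and 10.03 on *ob/ob* 3. Of the 7 macrophage markers tested, 4 had a higher mean in *ob/ob* iBAT (median difference 0.53), and their median level was 7.01 to 8.78 on the control arrays and 7.42 to 8.61 on the *ob/ob* arrays. The 3 neutrophil markers tested had a median level of 10.7 on *ob/ob* 3 against 4.56 to 7.59 on the other arrays. All 3 were highest on *ob/ob* 3, as were 30.2% of all genes tested. There *S100a8* lay at 10.69 and *S100a9* at 11.94. *Mpo*, detected on 2 arrays of each group, lay at 4.87 on *ob/ob* 3 and close by at 4.78 on *ob/ob* 1. The 4 endothelial markers had a median level of 8.19 to 11.4 on the control arrays and of 5.87 to 9.84 on the *ob/ob* arrays. Of them, 3 had a lower mean in *ob/ob* iBAT, while *Pecam1* differed by 0.048. The 6 lymphocyte markers, 2 of which had a higher mean in *ob/ob* iBAT, had a median between 5.65 and 6.52 on every array. The median of the 5 general adipocyte markers was 13.1 on *ob/ob* 3 and 8.63 to 10.8 elsewhere. That of the 6 skeletal muscle markers was 9.71 on *ob/ob* 3 and 6.00 to 9.13 elsewhere. Of these 6, 5 had a lower mean in *ob/ob* iBAT, while *Mylpf* was higher by 1.19. The part of these cell types in the values of the TNF and NF-κB genes was not tested. In whole tissue, fewer cells of a type and less RNA per cell cannot be told apart.

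The rest of the pathway was read from 6 lists of its ligands, receptors, signaling proteins, NF-κB proteins, negative regulators, and textbook target genes, by the brightest probe of each gene. Of 107 genes listed, 106 were on the array and 97 passed the filter on detection. At an adjusted p under 0.05 (limma), 0 of 97 differed, as did 0.0% of the 19011 genes tested. At an unadjusted p under 0.05, 3 were higher and 1 was lower in *ob/ob* iBAT (2.04% and 1.69% of all genes), together 4.12% against 3.73% of all genes. The groups did not overlap for 7 of 97 genes, or 7.22%, against 8.0% of all genes. Both shares lie near those of all genes tested. The median difference of the 97 genes was 0.0035 log2 units, beside −0.086 for all genes.

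Of the 14 other TNF family ligands tested, 7 had a higher mean in *ob/ob* iBAT (42.8% of all genes tested). An unadjusted limma p under 0.05 held for 0 of them (3.73% of all genes tested). The lowest p among them, 0.119, belonged to *Tnfsf18*, the ligand of GITR, a receptor found on T cells, which lay at 4.09, 4.10, and 4.47 log2 units on control arrays 1 to 3 versus 4.56, 4.69, and 5.43 on *ob/ob* arrays 1 to 3. The difference of *Tnfsf18* was 0.67, and it was 0.40 without *ob/ob* 3, 0.30 with scaling to the 75th percentile, and 0.18 with normexp. Of the 21 other TNF receptors tested, 10 had a higher mean, and 1 passed an unadjusted p under 0.05. This was *Tnfrsf11b*, which encodes osteoprotegerin, a decoy receptor that captures RANKL. It lay at 4.76, 4.29, and 6.64 log2 units on control arrays 1 to 3 versus 7.64, 7.24, and 6.71 on *ob/ob* arrays 1 to 3. Every *ob/ob* array lay above every control array, control 3 only just below *ob/ob* 3, for a difference of 1.97 (standard error 0.67, unadjusted limma p 0.0252, adjusted p 1.0). The unadjusted p stayed under 0.05 in 8 of 16 alternatives. It was 0.0627 by the methods' t-test (an exact permutation test cannot go below 0.10 here), and normexp gave a difference of 0.88.

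Of the 20 adaptors, kinases, and ubiquitin ligases between receptor and kinase, 14 had a lower and 6 a higher mean in *ob/ob* iBAT (median difference −0.18). Over all genes tested, 42.8% had a higher mean. An unadjusted limma p under 0.05 held for 3 of the 20, and for 3.73% of all genes tested. These 3 genes are named because they passed that threshold without overlap of the groups. *Rnf31*, the catalytic subunit of the linear ubiquitin ligase at the TNF receptor complex, lay at 8.18, 8.65, and 7.64 log2 units on control arrays 1 to 3 versus 7.07, 6.86, and 6.38 on *ob/ob* arrays 1 to 3. All *ob/ob* arrays lay below all controls, for a difference of −1.39 (standard error 0.40, unadjusted limma p 0.0124, adjusted p 1.0), and its other probe gave −0.61 (standard error 0.31), also without overlap. Within the shared scan, *Rnf31* differed by −0.84. Its unadjusted p stayed under 0.05 in 14 of 16 alternatives, the exceptions being the scan block and the fit without control 2. *Cflar*, which encodes the caspase-8 inhibitor cFLIP, differed by 1.31 (standard error 0.50, unadjusted limma p 0.0372) by its brightest probe, from 5.32 to 6.30 in the controls and 6.33 to 7.78 in the *ob/ob* samples. Its other probes gave −0.13 and −0.041, so its 3 probes did not share a direction. Their mean gave 0.38, normexp gave 0.74, and the unadjusted p stayed under 0.05 in 7 of 16 alternatives. *Traf6*, a ubiquitin ligase of receptor signaling, lay at 5.06, 4.88, and 5.35 log2 units on control arrays 1 to 3 versus 6.17, 5.49, and 6.57 on *ob/ob* arrays 1 to 3, a difference of 0.98 (standard error 0.39, unadjusted limma p 0.0452, adjusted p 1.0). It was 0.44 with normexp, and its unadjusted p stayed under 0.05 in 7 of 16 alternatives.

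The 10 other proteins of the IKK, IκB, and NF-κB families had a median difference of −0.06, with 6 lower, and the 8 other negative regulators had one of 0.09, with 3 lower. Over all genes tested, 42.8% had a higher mean in *ob/ob* iBAT. Neither list held a gene with an unadjusted limma p under 0.05 (3.73% of all genes tested). The lowest p in each belonged to *Bcl3*, a nuclear IκB protein, with a difference of −1.19 (standard error 1.11), and to *Tax1bp1*, a partner of A20, with 0.57 (standard error 0.64). Without 1 array in turn, the difference of *Bcl3* ran from −0.57 (without control 1) to −2.21 (without *ob/ob* 3), with −2.06 without control 3, and that of *Tax1bp1* from −0.0022 (without *ob/ob* 3) to 1.02 (without *ob/ob* 2).

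Of 29 textbook NF-κB target genes, 24 passed the filter, and *Il6*, *Ccl20*, *Cxcl2*, *Cxcl10*, and *Mmp9* did not, with detection on at most 2 arrays. Of the 24, 17 had a higher mean in *ob/ob* iBAT (42.8% of all genes tested), with a median difference of 0.19. An unadjusted limma p under 0.05 held for 0 of them (3.73% of all genes tested). The lowest p, 0.101, belonged to *Plau*, the urokinase gene, which lay at 4.46, 3.97, and 8.90 log2 units on control arrays 1 to 3 versus 9.08, 8.74, and 7.28 on *ob/ob* arrays 1 to 3. Control 3 lay among the *ob/ob* arrays. The difference of *Plau* was 2.59 log2 units (standard error 1.35). It ran from 1.69 without control 2 to 4.15 without control 3, the array that overlapped the *ob/ob* group, and was 1.38 with normexp. For 14 of the 24 target genes, or 58.3%, *ob/ob* 3 was the highest array, as it was for 30.2% of all genes tested.

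**Figure D5:**
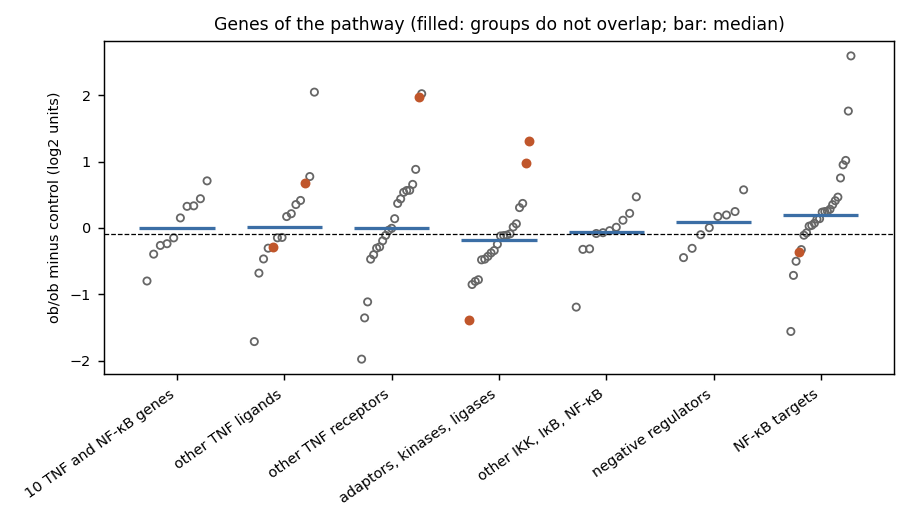
Difference between *ob/ob* and control iBAT (log2 units) for each gene of the 10 TNF and NF-κB genes and of 6 lists of other pathway genes, with a bar at the median of each list, filled symbols where the groups do not overlap, and a dashed line at the median of all genes tested (−0.086). The list medians lie between −0.18 and 0.19, and 7 of the 97 listed genes are filled.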

How the data were processed

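The authors isolated total RNA with TRIzol, labeled it with Cy3, and read the 1-color arrays with Agilent Feature Extraction (version 11.0.1.1). Of the deposited intensity values, the processed signal was corrected for background within an array, and the median spot signal and local background were uncorrected. None of them was normalized between arrays. The deposited log2 values of the series table were quantile normalized by the authors with GeneSpring and served as an alternative. The array's design is annotated on another genome build, so no probe coordinates are given.

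Spots with an outlier flag were left out, log2 signals were averaged per probe, and 39429 probes, less 104 without a usable spot on some array, were quantile normalized. Detection required at least 50% of a probe's spots well above background on at least 3 of 6 arrays, which left 35448 probes. The fit of *ob/ob* minus control used R (version 4.3.3) and its package limma (version 3.58.1), and the code was tested on simulated data. RefSeq accessions named 27174 of 28623 probes with one. The brightest probe stands for a gene.

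The 10 genes, the pathway lists, and the marker lists were chosen with earlier results of these data known. Beyond the 10 genes, the rule named, per pathway list, up to 3 genes with an unadjusted p under 0.05, detection on all arrays, and no overlap, or else the gene with the lowest p. Promoter sequences came from RefSeq. The 16 alternatives were scaling to the 75th percentile, normexp (offset 50), the authors' values, no filter, detection on all 6 arrays, the methods' t-test, limma with trend and robust estimation, replicate and scan blocks, the mean of a gene's probes, and leaving out each array. No spot was saturated, 83.5% to 89.9% of spots per array were well above background, and the number of arrays limits the precision. Samples with the same replicate number were compared by the correlation of their deviations from the group means.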

Additional observations from a re-analysis of the deposited data

How the results depend on the processing

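No gene of the 10 passed an adjusted p under 0.05 under any of the 16 alternatives. *Relb* and *Nfkbia* kept their direction under all 16, with values from 0.35 to 1.27 and from −1.34 to −0.50. The dimmer *Relb* probe alone, however, gave −0.0033 with all 6 arrays. The other 8 genes turned under at least 1 alternative. The turned values were −0.11 for *Tnf* with scaling to the 75th percentile, 0.014 for *Ikbkb* with normexp, and, with the scan as a block, −0.55 for *Tnfrsf1a*, −0.062 for *Tnfrsf1b*, 0.12 for *Nfkb1*, 0.26 for *Nfkb2*, and −0.96 for *Tnfaip3*. Leaving out each array in turn gave −1.32 to 1.31 for *Tnfrsf1a*, −0.35 to 0.99 for *Tnfrsf1b*, −0.52 to 0.23 for *Nfkb1*, −0.57 to 0.33 for *Nfkb2*, −1.40 to 0.21 for *Rela*, −1.50 to 1.20 for *Tnfaip3*, −0.79 to 0.22 for *Ikbkb*, and −0.0022 to 1.02 for *Tax1bp1*. Without 1 array in turn, the median of the 10 genes lay between −0.57 and 0.27, and 0 to 1 of them had an unadjusted p under 0.05.

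Over all probes, 705 were higher and 540 lower at an unadjusted limma p under 0.05. Scaling to the 75th percentile gave 139 and 312, the replicate block 139 and 220, and the scan block, which leaves *ob/ob* 1 against control 1 and control 3, 35 and 113. Leaving out each array gave 112 to 2188 higher and 173 to 1296 lower, the fewest without control 2 and the most without *ob/ob* 3, with 1804 and 1201 without control 3. Among the 97 pathway genes, 4 had an unadjusted p under 0.05, against 1 with scaling, 1 with the replicate block, 0 with the scan block, and 0 to 9 without 1 array, the fewest without control 2 and the most without control 3. Limma with trend and robust estimation called 1 probe at an adjusted p under 0.05, where the other settings called 0. Samples that share a replicate number had deviations from their group means correlated at −0.78, −0.66, and −0.85 (numbers 1, 2, and 3). The 3 deviations within a group depend on each other, so 1 outlying array moves all of them. These correlations therefore cannot decide whether the numbers pair the samples. The cause of these changes was not tested.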

Other observations

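The list of NF-κB target genes held 8 tested chemokine, interleukin, and colony-stimulating factor genes, grouped here after their values were seen. Of these 8, 6 were highest on *ob/ob* 3, as were 30.2% of all genes tested. *Ccl2*, which draws monocytes into tissue, lay at 12.58 log2 units on *ob/ob* 3 and at 6.54 to 8.09 on the other 5 arrays. *Csf1*, the growth factor of macrophages, had 3 tested probes, of which only the brightest is given here. It lay at 12.11 on *ob/ob* 3 and at 3.97 to 8.05 elsewhere. *Il1b* lay at 11.09 there and at 5.35 to 8.87 elsewhere, *Cxcl1* at 10.52 and 6.02 to 8.68, *Ccl7* at 9.93 and 5.68 to 7.48, and *Ccl5* at 7.06 and 5.51 to 6.28. The other 2 did not follow: *Il1a* lay at 4.23 on *ob/ob* 3 and at 4.15 to 5.22 elsewhere, and *Csf2* at 6.12 and 6.10 to 6.64. *Il6*, *Ccl20*, *Cxcl2*, and *Cxcl10* were detected on at most 2 arrays and not tested. On *ob/ob* 3, *Tnf* itself was at 4.26, below its 4.64 and 4.66 on *ob/ob* 1 and *ob/ob* 2. The group differences of the 8 genes had unadjusted limma p values of 0.269 or more.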
